A study of Mus musculus with 20 samples.

Results

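The proteasome genes were taken as the probe sets with a single gene symbol that begins with Psma, Psmb, Psmc, Psmd, Psme, Psmf or Psmg and a digit, leaving aside the immunoproteasome genes Psmb8, Psmb9 and Psmb10. This gave 55 probe sets of 43 genes, out of 10833 probe sets of 8251 genes on the array. Of these, 41 genes encode proteasome subunits, activators or assembly chaperones, with 53 probe sets. The other 2, Psmc3ip and Psme3ip1, fit by name only, since they encode partners of a subunit or an activator. They stay in the counts of proteasome probe sets and promoter windows below. No probe set of Psmf1, the proteasome inhibitor, carried its symbol, and 2 probe sets shared by Psme2 and Psme2b were left out because their signal cannot be given to a single gene. The cells had been sorted from adult mice of the inbred strain C57BL/10SnJ. The 4 groups of 5 arrays held the side population of skeletal muscle (Muscle SP), its main population (Muscle MP) and the same populations of bone marrow (Bone marrow SP, Bone marrow MP). Side population cells keep little of the DNA-binding dye Hoechst because membrane pumps export it, and main population cells retain it. No group carried an engineered allele or a treatment in its labels, and the labels name neither separate animals nor separate sorts behind the arrays of a group, so p-values measure only how far these arrays spread, which may be technical.

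The proteasome is the large protease that degrades ubiquitin-tagged proteins in the cytosol and the nucleus. Its core is a barrel of alpha rings, which gate the entrance, around beta rings, which hold the catalytic subunits Psmb5, Psmb6 and Psmb7. A regulatory cap of ATPases (Psmc genes) and non-ATPase subunits (most Psmd genes) binds, unfolds and feeds in the substrate, while the Psme activators open the core without ubiquitin and the Psmg proteins and some Psmd proteins help to assemble it.

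Promoter sequences are shown for 4 genes that carry the results below: Psme3 and Psmd14, which were lower in muscle than in bone marrow in both populations, Psmc1, which was higher, and Psmd12, which was higher in bone marrow SP than in bone marrow MP cells. Each runs from 250 bases before to 50 bases after the gene's start in the RefSeq annotation of GRCm38.p6, 5′ to 3′ on the plus strand, at chr11:101315963-101316262 for Psme3, chr2:61711444-61711743 for Psmd14, chr12:100109952-100110251 for Psmc1 and chr11:107479278-107479577 for Psmd12. Capitals mark CCGGAA, the core that ETS family factors bind, and TGACNNNGC, the core of the antioxidant response element that the proteasome regulator Nfe2l1 binds, on either strand.
Psme3: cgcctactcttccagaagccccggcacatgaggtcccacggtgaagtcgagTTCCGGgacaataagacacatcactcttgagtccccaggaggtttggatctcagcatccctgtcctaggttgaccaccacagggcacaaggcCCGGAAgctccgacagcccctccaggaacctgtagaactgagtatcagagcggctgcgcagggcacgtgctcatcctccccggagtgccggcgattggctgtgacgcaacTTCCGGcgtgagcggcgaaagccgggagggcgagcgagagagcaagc
Psmd14: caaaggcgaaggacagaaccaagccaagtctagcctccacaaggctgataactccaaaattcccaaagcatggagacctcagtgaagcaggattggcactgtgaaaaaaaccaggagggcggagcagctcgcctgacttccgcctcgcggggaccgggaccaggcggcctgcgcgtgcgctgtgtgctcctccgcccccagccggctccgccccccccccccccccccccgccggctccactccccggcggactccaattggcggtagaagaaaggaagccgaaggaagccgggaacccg
Psmc1: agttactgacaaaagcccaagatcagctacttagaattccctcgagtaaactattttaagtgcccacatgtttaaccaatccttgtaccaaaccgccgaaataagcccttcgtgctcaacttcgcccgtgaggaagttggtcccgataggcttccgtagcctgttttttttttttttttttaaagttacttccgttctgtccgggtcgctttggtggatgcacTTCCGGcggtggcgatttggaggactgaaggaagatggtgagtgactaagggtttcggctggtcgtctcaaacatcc
Psmd12: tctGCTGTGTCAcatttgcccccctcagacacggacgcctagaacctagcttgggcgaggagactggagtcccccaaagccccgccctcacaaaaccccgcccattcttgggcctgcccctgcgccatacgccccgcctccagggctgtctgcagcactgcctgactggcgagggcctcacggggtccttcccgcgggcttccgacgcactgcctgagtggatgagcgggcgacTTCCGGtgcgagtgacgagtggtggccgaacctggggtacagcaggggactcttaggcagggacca
CCGGAA occurred 3 times in the Psme3 window, once each in the windows of Psmc1 and Psmd12, and not in that of Psmd14. Windows were found for 36 of the 43 genes, 39 windows in all, and both strands were searched. CCGGAA was present in 22 of the 39 proteasome windows (56.4%), against 22.9% of 8413 windows of the genes on the array and 14.9% of all 32851 windows. The name-only Psmc3ip and Psme3ip1 are among the genes with CCGGAA. TGACNNNGC was present in 6 proteasome windows (15.4%), namely those of Psmb5, Psmb6, Psmc6, Psmd9, Psmd12 and Psme4, against 14.1% of the array's windows. Its stricter form TGACTCAGC, which is one case of TGACNNNGC, was in none of the proteasome windows and in 0.511% of the array's windows. The Sp1 core GGGCGG was in 56.4% of proteasome windows and 57.0% of the array's windows, CCAAT was in 35.9% and 37.0%, and ATGGCGG was in 10.3% and 6.68%. The CCGGAA share was therefore above the array's share, and the other shares were closer to it. These are matches of letters, not observed binding, and windows of neighbouring or divergent genes can share bases.

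Values below are log2 signals after the arrays were quantile normalized, with values under 6.71, the 25th percentile, set to that floor. A probe set was tested where it exceeded the floor on at least 5 of 20 arrays, which held for 53 of the 55 proteasome probe sets and 10310 probe sets in all. Psme1 161293_r_at (2 arrays above the floor) and Psmb4 98558_r_at (0 arrays) were not tested, and both genes have other probe sets that were. Before normalization the median signal of an array was 319 at the lowest and 613 at the highest, and precision is limited by having 5 arrays a group. The log2 ratio of 3′ to 5′ signal of the GAPDH control probe sets, which measures how evenly transcripts are covered toward their 5′ end, was higher on SP arrays than on MP arrays in muscle (3.83 ± 0.61 against 2.66 ± 0.62, SD, n = 5 each, exact two-sided permutation p = 0.0238, adjusted over 4 tests 0.0317) and in bone marrow (3.72 ± 0.60 against 2.67 ± 0.72, exact p = 0.0397, adjusted 0.0397), and the log2 actin ratio differed in the same direction in both tissues (adjusted p = 0.0317 each, exact permutation). Defining markers of several of the mixed cell types also moved with the groups. Summed over each marker list as linear normalized signal (3 to 6 genes of a list on the array), B lineage signal was 1259 to 2703 on bone marrow SP and 7461 to 14808 on bone marrow MP arrays, granulocyte signal was 76743 to 181462 and 238521 to 260423, blood stem cell signal was 12333 to 20515 and 1931 to 3302, monocyte and macrophage signal was 13505 to 57089 and 93507 to 103309, T and NK cell signal was 8807 to 24807 and 2205 to 2972, erythroid signal was 2264 to 9183 and 2308 to 3820, and cycling cell signal was 37230 to 40404 and 23785 to 28785. In muscle, fibroblast signal was 50669 to 84239 on SP and 133130 to 202097 on MP arrays, satellite cell signal was 1838 to 2179 and 5110 to 7523, endothelial signal was 77068 to 105571 and 56458 to 68297, monocyte and macrophage signal was 2870 to 9038 and 13319 to 15116, T and NK cell signal was 1206 to 7379 and 345 to 492, and cycling cell signal was 13917 to 16057 and 10266 to 15674. The muscle ranges of cycling cell, blood stem cell, B lineage, granulocyte and erythroid signal overlapped between SP and MP arrays. The bone marrow ranges of erythroid signal overlapped as well. Calcr, Myf5 and Fgfr4, which mark satellite cells, were at the floor on all bone marrow arrays. The part of these ratios and markers in the proteasome results was not tested beyond the alternatives given below, and in such sorted mixtures fewer cells of a type and less RNA per cell cannot be told apart.

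The group means of proteasome probe sets typically lay closer together than those of all probe sets tested. The highest and lowest of the 4 group means lay a median of 0.56 apart on the log2 scale over the 53 proteasome probe sets, against 0.92 over all probe sets tested. The median SD between arrays of a group was 0.34 for the proteasome probe sets and 0.39 for all probe sets. The proteasome probe sets were also brighter, with a median mean log2 signal of 11.14 against 9.37. Ranges and calls were not compared at like signal. The range of group means was under 0.5 for 24 proteasome probe sets (45.3%), against 20.8% of all probe sets. It was narrowest for Psmc6 (0.19), a cap ATPase, and widest for Psme3 (2.32), the activator of the nuclear proteasome. After Psme3 came Psmc1 (1.72), Psmd1 (1.45), Psma1 (1.31), Psmb1 160875_at (1.22), Psmg2 (1.17) and Psmd12 (1.16). Of the 53, 31 (58.5%) passed the threshold in none of the comparisons of SP with MP or of muscle with bone marrow, against 35.8% of all probe sets. The threshold was an adjusted p under 0.05 from limma with Benjamini-Hochberg adjustment over all probe sets tested.

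**Figure D1:**
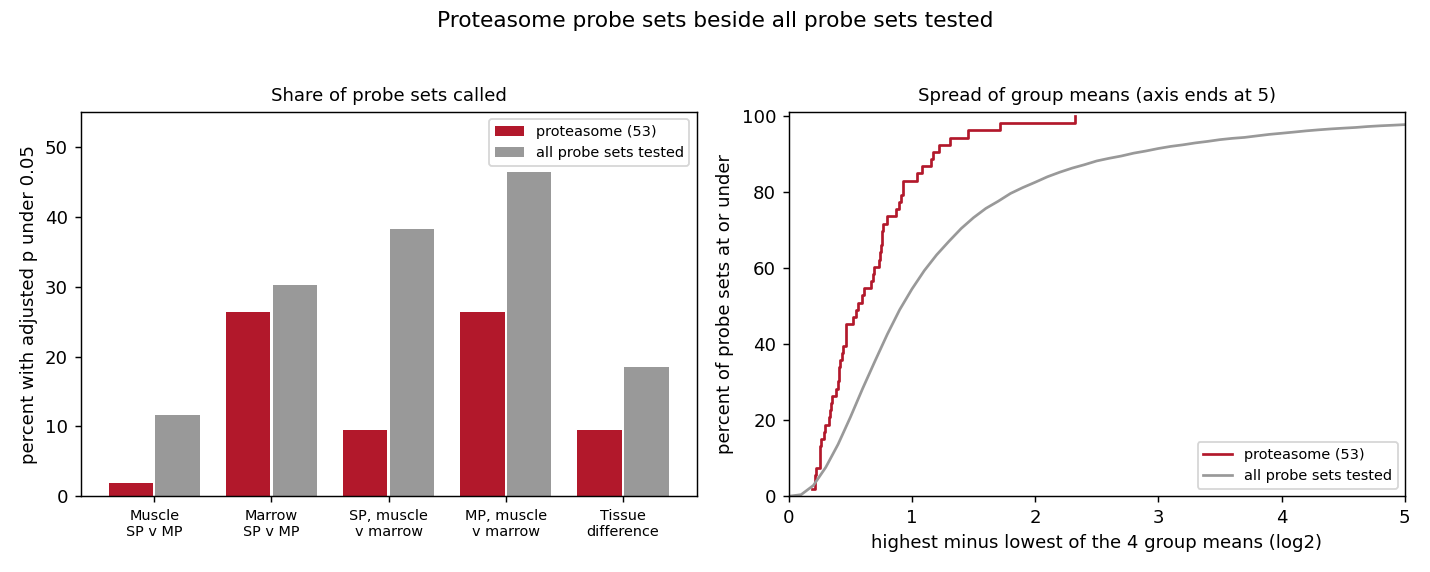
Left, the percent of probe sets with an adjusted p under 0.05 in each of the 5 comparisons, for the 53 proteasome probe sets (red) and all 10310 probe sets tested (grey). Right, the cumulative percent of probe sets against the range of the 4 group means on the log2 scale, for the same sets. The proteasome curve lies left of the other over most of its length, with medians of 0.56 and 0.92, and the red bar is the shorter in every comparison.

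In muscle, SP cells differed from MP cells in 1 proteasome probe set, Psmd6, which was lower in SP cells. This is 1.89% of the 53, beside 11.7% of all probe sets tested (5.1% higher and 6.64% lower). The median log2 difference was -0.06 over the proteasome probe sets and 0.03 over all probe sets. The differences that did not pass lay between -0.68 and 0.72, and their 95% intervals reached from -1.35 to 1.40. Without Muscle SP replicate 1 the count was 3, and without Muscle SP replicate 3, Muscle MP replicate 1, Muscle MP replicate 3 or Muscle MP replicate 4 it was 0.

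In bone marrow, SP cells differed from MP cells in 14 proteasome probe sets (26.4%), beside 30.2% of all probe sets tested. Psmg2, Psmd12, Psmd11, Psmc1 and Psme1 were among the 12 that were higher in SP cells, and Psma1 and Psme4 were the 2 that were lower, while 15.4% of all probe sets were higher and 14.8% lower. This split of 12 higher and 2 lower depended on the scaling of the arrays, since with the arrays scaled to their medians 0 were higher and 8 lower, and without further normalization 14 were higher and 2 lower. The scaling also moved the median log2 difference of the proteasome probe sets, which was 0.07 as tested, -0.22 with median scaling and 0.26 without further normalization, where the median of all probe sets was 0.02, -0.08 and 0.31. No general direction of proteasome genes between these cells can be read from the counts. Without Bone marrow SP replicate 2 the count was 8.

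**Figure D2:**
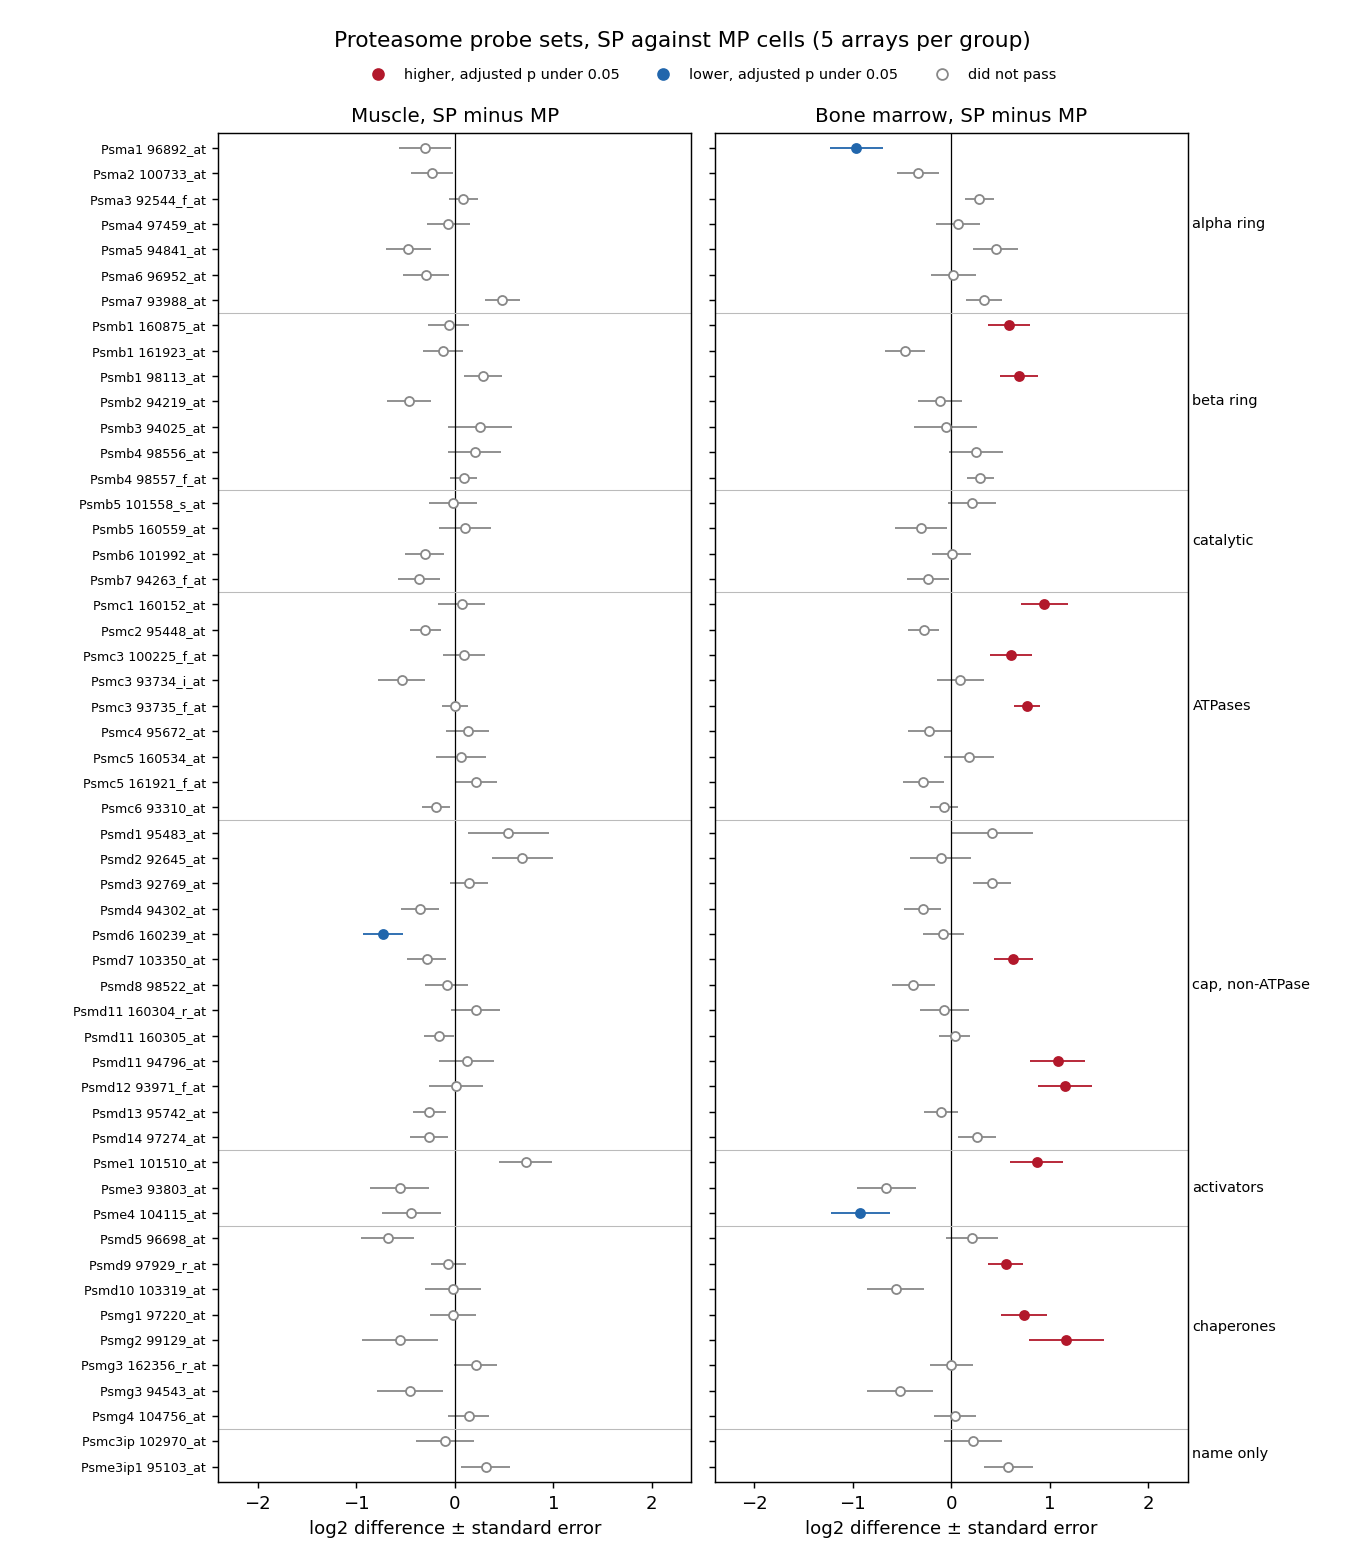
Log2 difference of SP minus MP cells (x axis, ± standard error of the fit) for the 53 tested proteasome probe sets, grouped by role, in muscle (left panel) and bone marrow (right panel). Filled points passed an adjusted p of 0.05 (red higher in SP, blue lower in SP) and open points did not. In muscle 1 point is filled, Psmd6 at -0.73, and in bone marrow 14 are filled, between -0.96 for Psma1 and 1.17 for Psmg2, with a split of 12 red and 2 blue that becomes 0 and 8 with median scaling.

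Between the tissues, muscle SP cells differed from bone marrow SP cells in 5 proteasome probe sets (9.43%), beside 38.3% of all probe sets tested (17.1% higher and 21.2% lower). Psmc1 and Psmb1 160875_at were higher in muscle SP cells, and Psme3, Psmd14 and the name-only Psmc3ip were lower. The median log2 difference was -0.08 over the proteasome probe sets and -0.11 over all probe sets. Without Muscle SP replicate 4, Muscle SP replicate 5 or Bone marrow SP replicate 3 the count was 3. In main population cells, muscle differed from bone marrow in 14 proteasome probe sets (26.4%), beside 46.5% of all probe sets tested. Here 9 were higher in muscle MP cells, led by Psmc1 and Psmb1, and 5 were lower, led by Psme3 and Psma1, while 20.9% of all probe sets were higher and 25.6% lower. Without further normalization the split was 13 higher and 3 lower. Without the probe sets that carry a suffix letter (s, f, g, r or i) in their ID, 8 of 41 passed, 4 in each direction. The 2 tissue comparisons share no arrays. Psmc1 and Psmb1 160875_at passed as higher in muscle in both and Psme3 and Psmd14 as lower in both, which makes 80% of the 5 calls in SP cells and 28.6% of the 14 calls in MP cells, beside 66.9% of the 3953 calls and 55.1% of the 4795 calls over all probe sets. The SP against MP comparisons of muscle and bone marrow also share no arrays. The 1 proteasome call in muscle was not among the 14 in bone marrow, while over all probe sets 402 passed in the same direction in both, 33.2% of the 1211 calls in muscle and 12.9% of the 3113 in bone marrow, and 114 passed in opposite directions.

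**Figure D3:**
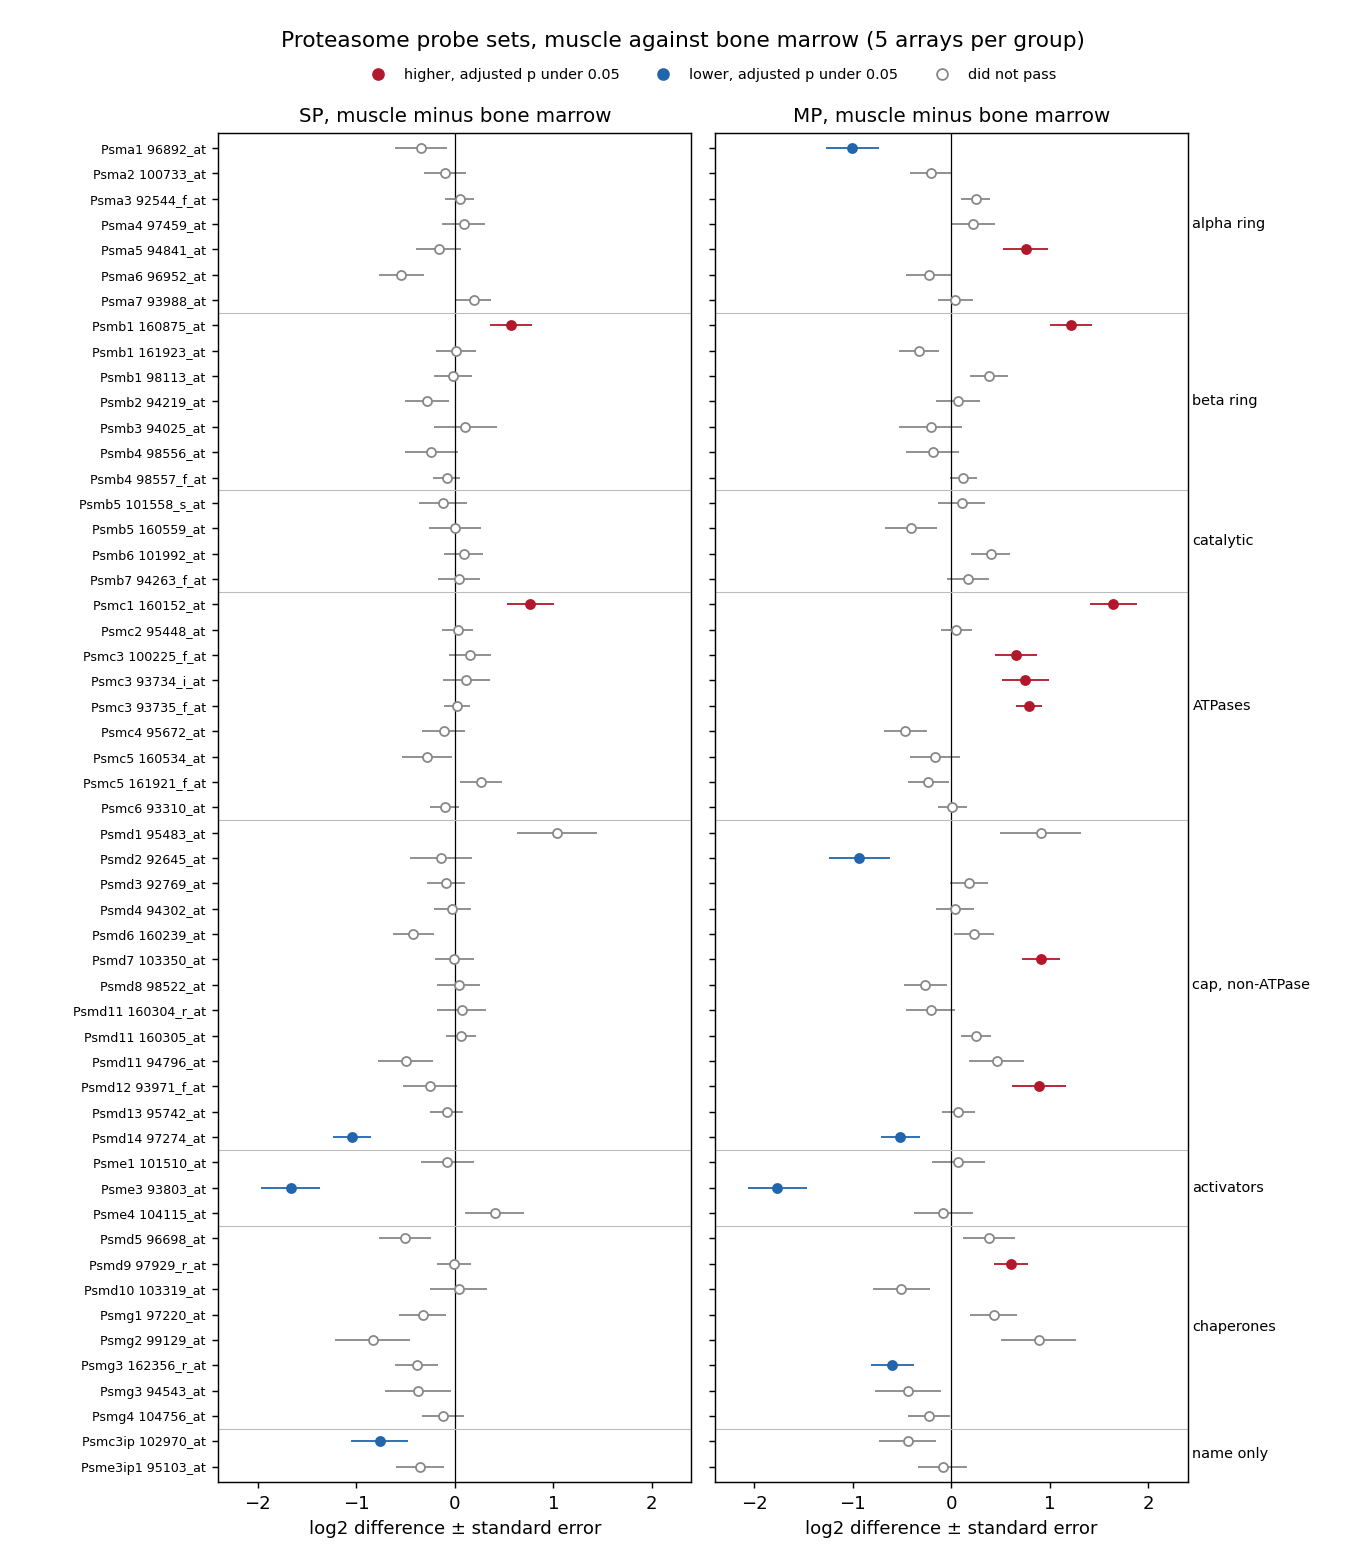
Log2 difference of muscle minus bone marrow (x axis, ± standard error of the fit) for the 53 tested proteasome probe sets, in SP cells (left panel) and MP cells (right panel), with colours as for SP against MP. Psme3 lies at -1.67 and -1.77 and Psmc1 at 0.77 and 1.65, and these are the filled points farthest out on each side of both panels.

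The catalytic subunits did not pass the threshold in any comparison as tested, though Psmb6 and Psmb7 passed in 1 comparison each under some alternatives. Psmb5 carries the chymotrypsin-like activity, and its brighter probe set, 101558_s_at, had log2 signals of 11.17, 12.01, 12.26, 11.25 and 11.64 on the muscle SP arrays and 11.78, 11.74, 11.85, 11.70 and 11.33 on the muscle MP arrays. On the bone marrow SP arrays they were 12.07, 12.05, 11.90, 11.89 and 11.03, and on the bone marrow MP arrays 11.41, 11.31, 11.31, 11.60 and 12.25. All 4 groups overlap. The SP minus MP difference was -0.02 in muscle (95% interval -0.52 to 0.49) and 0.21 in bone marrow (-0.29 to 0.72). For this probe set a difference above 0.72 in either direction lay outside both intervals. The second probe set of Psmb5, 160559_at, had 9.86, 8.68, 8.12, 8.48 and 8.91 on muscle SP and 8.81, 8.75, 8.65, 8.30 and 9.02 on muscle MP arrays. It had 9.15, 8.06, 8.85, 8.85 and 9.12 on bone marrow SP and 9.34, 9.27, 8.79, 8.99 and 9.18 on bone marrow MP arrays, again with overlap between all groups. Its SP minus MP difference was 0.105 in muscle (95% interval -0.44 to 0.65) and -0.31 in bone marrow (-0.85 to 0.24).

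Psmb6, the subunit with caspase-like activity, had 11.15, 11.38, 11.03, 11.05 and 11.26 on muscle SP and 11.06, 11.91, 11.64, 11.51 and 11.28 on muscle MP arrays. It had 11.42, 11.02, 10.47, 11.42 and 11.08 on bone marrow SP and 11.07, 11.46, 10.91, 11.07 and 10.88 on bone marrow MP arrays. All groups overlap. The difference of muscle MP minus bone marrow MP of Psmb6 was 0.40 with an interval of -0.01 to 0.81 and an adjusted p of 0.0998. It passed without further normalization (0.51, adjusted p = 0.0413), with array weights (0.44, adjusted p = 0.0284) and without Muscle MP replicate 1 (0.51, adjusted p = 0.0465). Psmb7, with trypsin-like activity, had 11.29, 11.71, 11.29, 11.26 and 11.51 on muscle SP and 12.24, 12.05, 11.82, 11.66 and 11.10 on muscle MP arrays. It had 11.34, 11.71, 11.05, 11.39 and 11.35 on bone marrow SP and 11.82, 11.90, 11.09, 11.31 and 11.88 on bone marrow MP arrays. Its SP minus MP difference was -0.36 in muscle (-0.81 to 0.08) and -0.24 in bone marrow (-0.68 to 0.21), and with median scaling the bone marrow value was -0.65 with an adjusted p of 0.0342.

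Among the 7 alpha ring genes, Psma1 and Psma5 passed in 1 or more comparisons, and Psma2, Psma3, Psma4, Psma6 and Psma7 passed in none. Psma1 had 9.80, 10.70, 10.83, 11.40 and 11.56 on bone marrow SP arrays and 11.82, 12.28, 11.72, 11.64 and 11.64 on bone marrow MP arrays. Its values were 9.97, 10.63, 10.23, 10.66 and 11.07 on muscle SP and 10.85, 10.75, 11.06, 10.88 and 10.55 on muscle MP arrays. The bone marrow MP arrays lay above all others. Psma1 was 1.95-fold lower in bone marrow SP than in bone marrow MP cells (log2 difference -0.96 ± 0.27, SE, adjusted p = 0.00792) and 2-fold lower in muscle MP than in bone marrow MP cells (log2 difference -1.003 ± 0.27, SE, adjusted p = 0.00345), 2 comparisons that share the bone marrow MP arrays. Psma5 had 12.22, 12.90, 12.84, 12.47 and 12.84 on muscle MP and 11.46, 12.33, 12.07, 11.78 and 11.85 on bone marrow MP arrays. These overlap, and the difference was 0.76 (adjusted p = 0.00908).

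The structural beta subunits Psmb2, Psmb3 and Psmb4 passed in no comparison, and Psmb1 passed in 3. Psmb1 160875_at had 13.27, 13.39, 13.54, 13.89 and 13.56 on muscle SP and 12.61, 13.32, 12.56, 13.52 and 12.80 on bone marrow SP arrays. It had 13.37, 13.51, 13.54, 13.74 and 13.79 on muscle MP and 12.27, 12.14, 12.92, 12.54 and 12.01 on bone marrow MP arrays. In MP cells the tissues did not overlap, and in SP cells they did. The signal was 2.33-fold higher in muscle MP than in bone marrow MP cells (log2 difference 1.22 ± 0.21, SE, adjusted p = 4.39e-05) and 1.48-fold higher in muscle SP than in bone marrow SP cells (log2 difference 0.57 ± 0.21, SE, adjusted p = 0.0353). The SP value lost the threshold without Muscle SP replicate 3, 4 or 5 or Bone marrow SP replicate 1, 3 or 5 (adjusted p up to 0.102), and in a fit of the SP groups alone (0.0795). The other probe sets of Psmb1 gave other values for muscle MP minus bone marrow MP, 0.39 for 98113_at and -0.33 for 161923_at, neither of which passed. For muscle SP minus bone marrow SP they gave -0.021 and 0.015 and did not pass. The third comparison was bone marrow SP minus MP. There 160875_at (0.59, adjusted p = 0.0384) and 98113_at (0.69, adjusted p = 0.00876) were higher, though not with median scaling, and 161923_at did not pass (-0.46).

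**Figure D4:**
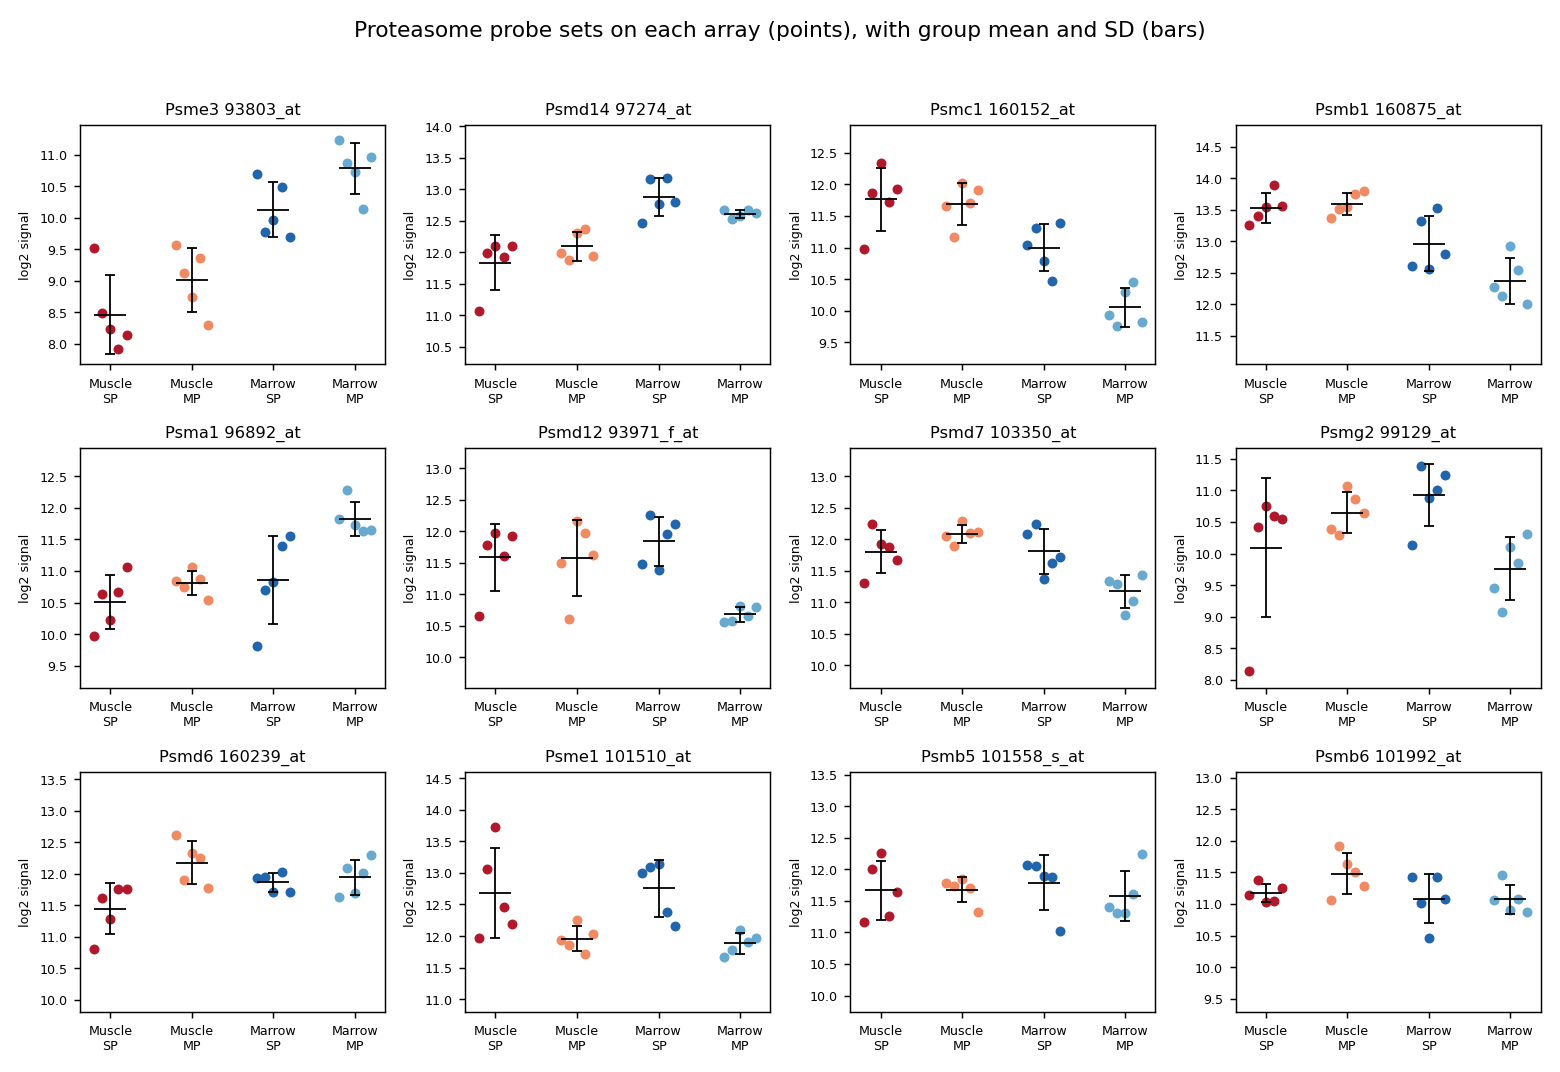
Log2 signal (y axis, placed for each panel with the same span) on each of the 20 arrays for 12 proteasome probe sets, ordered from left to right as Muscle SP, then Muscle MP, then Bone marrow SP, then Bone marrow MP, and bars for the group mean and SD (n = 5). Psme3 lies lower on the muscle than on the bone marrow arrays, with means of 8.46 in muscle SP and 10.13 in bone marrow SP, Psmc1 lies higher, with 11.77 and 10.997, and Psmb5 and Psmb6 overlap between all groups.

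Of the 6 cap ATPases, which unfold substrates and open the gate of the core, Psmc1 and Psmc3 passed and Psmc2, Psmc4, Psmc5 and Psmc6 did not. Psmc1 had 10.97, 11.87, 12.33, 11.72 and 11.93 on muscle SP and 11.03, 11.30, 10.78, 10.48 and 11.39 on bone marrow SP arrays. It had 11.66, 11.16, 12.03, 11.71 and 11.92 on muscle MP and 9.93, 9.76, 10.29, 10.45 and 9.82 on bone marrow MP arrays. The muscle MP arrays lay above every bone marrow MP array, while a muscle SP array lay within the bone marrow SP values. Psmc1 was 3.13-fold higher in muscle MP than in bone marrow MP cells (log2 difference 1.65 ± 0.24, SE, adjusted p = 5.15e-06) and 1.7-fold higher in muscle SP than in bone marrow SP cells (log2 difference 0.77 ± 0.24, SE, adjusted p = 0.014), and both calls held under all alternatives run. In bone marrow it was 1.93-fold higher in SP than in MP cells (log2 difference 0.95 ± 0.24, SE, adjusted p = 0.0043), without overlap, and with median scaling its adjusted p was 0.0509. Psmc3 was measured by 3 probe sets. Of these, 100225_f_at and 93735_f_at carry a suffix that marks possible cross-hybridisation, and 93734_i_at carries another suffix. All 3 were higher in muscle MP than in bone marrow MP cells, by 0.66, 0.75 and 0.79, and 2 of them were higher in bone marrow SP than in bone marrow MP cells, by 0.61 and 0.77. These rises in bone marrow SP cells did not pass with median scaling.

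Among the 11 non-ATPase genes of the cap, the clearest difference between the tissues was that of Psmd14, the deubiquitinase that removes ubiquitin chains from substrates before they enter the core. Psmd14 had 11.07, 11.98, 12.10, 11.93 and 12.10 on muscle SP and 12.47, 13.17, 12.77, 13.18 and 12.80 on bone marrow SP arrays. It had 11.98, 11.88, 12.31, 12.38 and 11.94 on muscle MP and 12.68, 12.53, 12.58, 12.68 and 12.62 on bone marrow MP arrays. Neither pair of groups overlapped. Psmd14 was 2.06-fold lower in muscle SP than in bone marrow SP cells (log2 difference -1.04 ± 0.20, SE, adjusted p = 0.000172), and 1.43-fold lower in muscle MP than in bone marrow MP cells (log2 difference -0.52 ± 0.20, SE, adjusted p = 0.0353). The first of these held under all alternatives run, and without Muscle SP replicate 1, the lowest array, it was -0.85. The second was not examined singly under the alternatives.

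Psmd7, the catalytically inactive partner of Psmd14, had 12.05, 11.89, 12.29, 12.10 and 12.11 on muscle MP and 11.34, 11.30, 10.79, 11.03 and 11.43 on bone marrow MP arrays, and 12.09, 12.24, 11.37, 11.62 and 11.72 on bone marrow SP arrays. The muscle MP arrays lay above all bone marrow MP arrays, with a 1.88-fold difference (log2 difference 0.91 ± 0.20, SE, adjusted p = 0.000534). Psmd7 was also higher in bone marrow SP than in bone marrow MP cells (log2 difference 0.63 ± 0.20, SE, adjusted p = 0.018), where 1 or more arrays overlapped. With median scaling this rise did not pass. Psmd12, a structural subunit of the lid of the cap, had 11.47, 12.26, 11.39, 11.95 and 12.11 on bone marrow SP and 10.57, 10.58, 10.81, 10.65 and 10.80 on bone marrow MP arrays. Muscle MP arrays had 11.50, 10.61, 12.17, 11.97 and 11.61. The bone marrow groups were apart, and Psmd12 was 2.23-fold higher in SP cells (log2 difference 1.16 ± 0.27, SE, adjusted p = 0.00233), with an adjusted p of 0.051 with median scaling. It was 1.85-fold higher in muscle MP than in bone marrow MP cells (log2 difference 0.89 ± 0.27, SE, adjusted p = 0.00979), where the groups overlapped. Both Psmd12 differences come from probe set 93971_f_at, which carries the suffix that marks possible cross-hybridisation.

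Psmd11, another lid subunit, had 11.31, 12.67, 12.31, 12.96 and 11.51 on bone marrow SP and 11.28, 10.69, 11.73, 10.83 and 10.85 on bone marrow MP arrays with probe set 94796_at. The groups overlapped, and the difference was 2.12-fold (log2 difference 1.08 ± 0.28, SE, adjusted p = 0.00508), with an adjusted p of 0.104 with median scaling. The other probe sets of Psmd11 gave 0.03 (160305_at) and -0.07 (160304_r_at) and did not pass. Psmd6, also of the lid, had 10.80, 11.61, 11.29, 11.75 and 11.76 on muscle SP and 12.62, 11.90, 12.33, 12.25 and 11.77 on muscle MP arrays. The groups were apart by a narrow margin, and Psmd6 was 1.66-fold lower in SP cells (log2 difference -0.73 ± 0.21, SE, adjusted p = 0.0223). The call was lost with the GAPDH 3′ to 5′ ratio as a covariate (log2 difference -0.50, adjusted p = 0.237), in a fit of the muscle groups alone (0.0732), without the 3 arrays of highest GAPDH ratio (0.0591) and without any of Muscle SP replicate 1 or 3 or Muscle MP replicate 1, 3 or 4 (0.0516 to 0.0695). Psmd2, a scaffold subunit that docks ubiquitin receptors, had 6.71, 8.01, 7.55, 7.38 and 6.71 on muscle MP and 8.68, 8.40, 8.07, 8.07 and 7.81 on bone marrow MP arrays. The groups overlapped, and Psmd2 was 1.91-fold lower in muscle MP cells (log2 difference -0.93 ± 0.31, SE, adjusted p = 0.0176), a call that was lost without further normalization (-0.78, adjusted p = 0.0703), with the floor at the 40th percentile (-0.25, adjusted p = 0.333), and without Muscle MP replicate 1 or 5 or Bone marrow MP replicate 1. Psmd1, Psmd3, Psmd4, Psmd8 and Psmd13 passed in no comparison, although the means of Psmd1 ranged over 1.45 with an SD of 0.73 within groups.

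Psme3 encodes the subunit of a nuclear activator ring that lets the core degrade some proteins without ubiquitin. It had 9.52, 8.50, 8.23, 7.92 and 8.14 on muscle SP and 10.69, 9.78, 9.97, 10.49 and 9.70 on bone marrow SP arrays. It had 9.57, 9.12, 8.75, 9.36 and 8.30 on muscle MP and 11.23, 10.87, 10.73, 10.14 and 10.96 on bone marrow MP arrays. Every muscle array lay below every bone marrow array of its population. Psme3 was 3.17-fold lower in muscle SP than in bone marrow SP cells (log2 difference -1.67 ± 0.30, SE, adjusted p = 8.78e-05) and 3.4-fold lower in muscle MP than in bone marrow MP cells (log2 difference -1.77 ± 0.30, SE, adjusted p = 3.25e-05). Both calls held under all alternatives run, with log2 differences between -1.99 and -1.42 in SP cells and between -1.92 and -1.58 in MP cells. The SP minus MP difference of Psme3 was -0.56 in muscle and -0.66 in bone marrow and did not pass in either (adjusted p = 0.257 and 0.103). In muscle it passed under 3 of 35 alternatives. These were the GAPDH ratio as a covariate (-1.08, adjusted p = 0.0363), leaving out the 3 arrays of highest GAPDH ratio (-0.84, 0.0427) and leaving out Muscle SP replicate 1 (-0.83, 0.0481). In bone marrow it passed under 4 of 35 alternatives. These were median scaling (-0.90, adjusted p = 0.0176), array weights (-0.75, 0.0432), the replicate block (-0.66, 0.0367) and the GAPDH covariate (-1.13, 0.00971).

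Psme1, the alpha subunit of the interferon-induced activator that favours peptides for antigen presentation, had 13.01, 13.10, 13.14, 12.38 and 12.15 on bone marrow SP and 11.68, 11.78, 12.10, 11.91 and 11.97 on bone marrow MP arrays. It had 11.96, 13.06, 13.72, 12.46 and 12.19 on muscle SP and 11.93, 11.85, 12.26, 11.72 and 12.04 on muscle MP arrays. In bone marrow every SP array lay above every MP array, and in muscle the groups overlapped. Psme1 was 1.83-fold higher in bone marrow SP than in bone marrow MP cells (log2 difference 0.87 ± 0.27, SE, adjusted p = 0.0169), and with median scaling the difference was 0.31 (adjusted p = 0.431). In muscle the difference was 0.72 with an adjusted p of 0.0872. It passed under 5 of 35 alternatives. Among them were the GAPDH ratio as a covariate (1.01, adjusted p = 0.0486) and leaving out Muscle SP replicate 1 (0.90, adjusted p = 0.0287). The difference between the tissues in this change was -0.15 (95% interval -0.94 to 0.64) and did not pass (adjusted p = 0.844). Psme4, a large single-chain nuclear activator, had 8.71, 9.54, 9.49, 10.59 and 10.56 on bone marrow SP and 10.84, 10.73, 10.81, 10.99 and 10.16 on bone marrow MP arrays. The groups overlapped, and Psme4 was 1.9-fold lower in bone marrow SP cells (log2 difference -0.93 ± 0.30, SE, adjusted p = 0.0223), a call that was lost under 7 alternatives, among them no further normalization (-0.63, adjusted p = 0.0678) and the fits without Bone marrow SP replicate 1, 2 or 3 or Bone marrow MP replicate 4.

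Of the 7 assembly chaperones, Psmg1, Psmg2 and Psmd9 were higher in bone marrow SP than in bone marrow MP cells. None of them passed as higher there with median scaling. Psmg1 and Psmg2 form a pair that helps to build the alpha ring. Psmg2 had 10.13, 11.39, 10.88, 11 and 11.25 on bone marrow SP and 9.46, 9.08, 10.11, 9.85 and 10.31 on bone marrow MP arrays. On the muscle SP arrays it had 8.14, 10.43, 10.75, 10.60 and 10.56, and on the muscle MP arrays 10.38, 10.30, 11.06, 10.86 and 10.64. The bone marrow groups overlapped at a single array of SP cells, and the muscle SP group held a single low array. Psmg2 was 2.25-fold higher in bone marrow SP cells (log2 difference 1.17 ± 0.38, SE, adjusted p = 0.0237), a call that was lost with median scaling (adjusted p = 0.0627), with no filter on low signals (0.0512) and without Bone marrow SP replicate 2 or 5 or Bone marrow MP replicate 1 or 2 (0.0531 to 0.071). Psmg1 was higher by 0.74 (adjusted p = 0.0205) and Psmd9, which chaperones the ATPase ring, by 0.55 (adjusted p = 0.0195) and, in muscle MP over bone marrow MP cells, by 0.61 (adjusted p = 0.00657). Psmd9 was measured by 97929_r_at, which also carries a suffix letter. Psmg3 162356_r_at had 9.69, 9.64, 9.74, 9.54 and 9.97 on muscle MP and 10.15, 10.39, 10.34, 10.55 and 10.12 on bone marrow MP arrays. The groups were apart and Psmg3 was 1.51-fold lower in muscle MP cells (log2 difference -0.60 ± 0.22, SE, adjusted p = 0.0289), but the call was lost without Muscle MP replicate 2 or 4 or Bone marrow MP replicate 2 or 4 (adjusted p between 0.0533 and 0.0703) and without further normalization (-0.46, adjusted p = 0.12), and its other probe set, 94543_at, did not pass (-0.44). Psmd5, Psmd10 and Psmg4 passed in no comparison.

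Psmc3ip, which acts in meiotic recombination and is no proteasome subunit, had 6.71, 6.71, 6.73, 6.71 and 6.71 on muscle SP and 6.79, 8.19, 7.51, 6.95 and 7.95 on bone marrow SP arrays. The muscle SP arrays lay at or just above the floor, so the -0.76 (adjusted p = 0.0415) is set in part by the floor, and the call was lost without any one of the Muscle SP arrays, without Bone marrow SP replicate 2, 3 or 5, with no filter and without the 3 arrays of highest GAPDH ratio. Psme3ip1 passed in no comparison.

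The SP minus MP change itself differed between the tissues for 5 proteasome probe sets (9.43%), beside 18.5% of all probe sets tested. All 5 were lower, that is, the change was less positive in muscle than in bone marrow. They were Psmg2 (log2 difference -1.72 ± 0.54, SE, adjusted p = 0.0286), Psmd12 (log2 difference -1.15 ± 0.39, SE, adjusted p = 0.0407), Psma5 (-0.92, adjusted p rounding to the threshold of 0.05), Psmd7 (log2 difference -0.92 ± 0.28, SE, adjusted p = 0.0236) and Psmc3 93735_f_at (-0.77, adjusted p = 0.00642). Of all probe sets, 8.69% were higher and 9.85% lower in this difference. For Psma5 the SP minus MP change was -0.47 in muscle and 0.45 in bone marrow, on arrays with 11.59, 12.29, 12.59, 12.26 and 12.19 in muscle SP and 11.78, 12.87, 12.05, 12.58 and 12.46 in bone marrow SP cells, and neither change passed on its own. The count was 1 with median scaling and 9 without further normalization, and it was 1 without Bone marrow SP replicate 2, 2 without Muscle MP replicate 3, Bone marrow MP replicate 1 or Bone marrow MP replicate 3, and 3 without Muscle SP replicate 1 or 4, Muscle MP replicate 4 or Bone marrow MP replicate 2, 4 or 5. The call of Psmg2 was lost with no filter (adjusted p = 0.0609), without the 3 arrays of highest GAPDH ratio (-1.12, adjusted p = 0.0561) and without Muscle MP replicate 3, Bone marrow SP replicate 2 or Bone marrow MP replicate 1 or 2 (0.0516 to 0.0568), and without Muscle SP replicate 1 it was -1.24 (adjusted p = 0.0178). The call of Psma5 was lost under 20 alternatives and that of Psmd12 under 18. That of Psmd7 was lost with median scaling (-0.62, adjusted p = 0.157) and without Bone marrow SP replicate 2 or Bone marrow MP replicate 3. The call of Psmc3 93735_f_at was not examined singly under the alternatives. With median scaling the 1 call left was Psmg2, so Psmc3 93735_f_at did not pass there.

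The immunoproteasome subunits, which replace the catalytic subunits in immune cells and after interferon, gave a partly different picture from Psmb5, Psmb6 and Psmb7. Psmb8, the counterpart of Psmb5, was higher in SP than in MP cells in muscle (log2 difference 0.75 ± 0.24, SE, adjusted p = 0.0431) and in bone marrow (log2 difference 0.86 ± 0.24, SE, adjusted p = 0.00792). Its SP and MP groups overlapped in muscle and not in bone marrow. The alternatives, median scaling among them, were not examined for the immunoproteasome genes or for the accessory genes below. Psmb10 was higher in muscle than in bone marrow in SP cells (log2 difference 0.68 ± 0.23, SE, adjusted p = 0.023) and in MP cells (log2 difference 0.88 ± 0.23, SE, adjusted p = 0.00346), and Psmb9 was lower in muscle MP than in bone marrow MP cells (log2 difference -1.06 ± 0.30, SE, adjusted p = 0.00572). The lists of ubiquitin and proteasome accessory genes held 48 tested probe sets of 35 genes, of which 6 (12.5%, beside 11.7% of all probe sets tested) passed in muscle SP against MP, 3 higher and 3 lower, and 19 (39.6%, beside 30.2%) in bone marrow SP against MP, 10 higher and 9 lower. Between the tissues 14 (29.2%, beside 38.3%) passed in SP cells, 4 higher and 10 lower, and 15 (31.2%, beside 46.5%) in MP cells, 4 higher and 11 lower. In the difference between tissues 1 passed, Nfe2l2 (2.08%, beside 18.5%). Pomp, the maturation factor of the core, was lower in SP than in MP cells in muscle (-0.81, adjusted p = 0.0164) and bone marrow (-1.10, adjusted p = 0.000505), as was the shuttle factor Ubqln1 99575_at (-1.69, adjusted p = 0.0021 and -1.80, adjusted p = 0.000345), whose other probe set, 95601_at, did not pass in muscle (-0.27, adjusted p = 0.288) and was lower in bone marrow (-0.45, adjusted p = 0.024). Vcp, the ATPase that extracts substrates, was higher in SP cells in both tissues with probe sets 97665_i_at (0.92, adjusted p = 0.00619 in muscle and 0.61, adjusted p = 0.0352 in bone marrow) and 100710_at (0.53, adjusted p = 0.0232 and 1.10, adjusted p = 7.92e-06), while 97666_r_at passed in neither (0.48, adjusted p = 0.0934 and 0.12, adjusted p = 0.684). Uchl5, a deubiquitinase that docks on the cap, was lower in muscle than in bone marrow (-1.90, adjusted p = 5.76e-07 in SP cells and -2.11, adjusted p = 8.43e-08 in MP cells). Nfe2l1, a transcription factor of proteasome genes, was higher in muscle with probe set 160535_at (1.22, adjusted p = 9.08e-06 in SP cells and 1.45, adjusted p = 5.71e-07 in MP cells), while its other probe set, 101757_at, did not pass (0.32, adjusted p = 0.602 in SP cells and -0.77, adjusted p = 0.143 in MP cells, of opposite sign in the MP cells).

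Over the 20 arrays the probe sets most like Psmb5 101558_s_at were Tmed3 (Pearson r = 0.791), Gipc1 (0.752), Ddx49 (0.744), Dmap1 (0.739) and Acsf3 (0.729), none of them a proteasome gene. The median r with Psmb5 was 0.233 over the other proteasome probe sets and -0.01 over all probe sets. The arrays share their groups and scaling, and these values describe likeness over the arrays only.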

How the data were processed

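Total RNA of sorted mouse cells was measured on 20 arrays in 4 groups of 5. The deposited values are linear signal intensity values of each probe set on each array. As read from the values, the authors had set the 2%-trimmed mean of each array to 1501. Not given in the sources used here are the software, the background correction and the probe summary. All 20 columns matched a sample's label. The members and gene lists were chosen with earlier results of these data known.

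Of 12488 probe sets, 66 controls were left out. Array medians differed by 0.943 (log2), more than a tolerance of 0.1, so the arrays were quantile normalized. This removes any overall difference in RNA content, and the floor at the 25th percentile (105 signal) shrinks differences of dim probe sets. A limma 3.58.1 fit (R 4.3.3) of all 4 group means gave 5 two-sided contrasts, adjusted by Benjamini-Hochberg over the 10310 probe sets tested. limma was tested on simulated data. Named with values in every array were Psmb5, Psmb6, Psmb7, Psme1, Psme3 and, per comparison, up to 4 largest rises and 4 largest falls among calls. The immunoproteasome genes and chosen genes with calls from the ubiquitin and accessory list were given for reference. The chosen genes are not the largest calls of that list. Larger ones left out include Ube2d3 103754_at (-1.60) and Uchl1 (-1.35) in bone marrow SP against MP. Others are Cul2 (1.33) and Usp5 (-1.33) in muscle MP against bone marrow MP. Psmc3 and the other members outside this rule are given by differences and counts. Gene symbols came from the array's probe table, and all 55 probe sets matched RefSeq (GRCm38.p6) by gene identifier with symbols unchanged. That annotation gave names and promoter windows only, since no genome build is named for the array. Control ratios were compared by exact permutation. Alternatives were other scalings, floors and filters, a pseudocount of 100 signal units, trend and robust options, array weights, the groups compared alone, the replicate number as a block, a GAPDH ratio covariate, leaving out the 3 arrays of highest GAPDH ratio or each array in turn, the brightest probe set per gene, and leaving out probe sets with a suffix letter (s, f, g, r or i) in their ID. Same-numbered arrays of different groups had correlated deviations between -0.141 and 0.296, over 0.1 in 10 of 20 pairs. The labels do not say whether the numbers pair the arrays. The main fit left them unpaired. The replicate block, run as an alternative, allowed for an effect shared by same-numbered arrays. Whether such arrays shared a batch was not itself tested. Plotting used Python 3.11.15 and matplotlib 3.10.9.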

Additional observations from a re-analysis of the deposited data

Results flagged for a closer look

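Single arrays stood apart from the other 4 of their group, by the gap to the nearest of them relative to the group's whole range, in 8 of 80 groups of values (20 probe sets of 19 genes), where chance gives about 1 in 20. On Muscle SP 1, Psmg2 was at 8.14 (others 10.428 to 10.754), Psmd12 at 10.653 (11.598 to 11.965) and Psmd14 at 11.066 (11.927 to 12.1). This array also had the highest log2 GAPDH 3′ to 5′ ratio of all 20, at 4.79, and its proteasome probe sets had a median of -0.24 relative to their means over all arrays, the lowest of the 20 arrays. Psmb5 101558_s_at was at 11.33 on Muscle MP 5 (others 11.7 to 11.849) and at 11.025 on Bone marrow SP 5 (11.887 to 12.074), and Psmb5 160559_at was at 8.06 on Bone marrow SP 2 (8.846 to 9.152). Psma1 was at 12.282 on Bone marrow MP 2 (11.636 to 11.819). Psmc3ip was at 6.731 on Muscle SP 3, where the other 4 arrays were at the floor of 6.711.

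The SP minus MP change differed between muscle and bone marrow, by the fitted difference of the changes, for Psmg2 (-1.724), Psmd12 (-1.145), Psma5 (-0.921), Psmd7 (-0.915) and Psmc3 93735_f_at (-0.766), each less positive in muscle. Without Muscle SP 1 the difference was -1.241 for Psmg2 (adjusted p = 0.0178), -0.793 for Psmd7 (adjusted p = 0.0413), -0.914 for Psmd12 (adjusted p = 0.0683) and -0.773 for Psma5 (adjusted p = 0.0884), from limma with Benjamini-Hochberg adjustment. The Psmg2 difference did not pass under 6 other alternatives (adjusted p between 0.0516 and 0.0609).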

How the results depend on the processing

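Over the alternatives, the differences of named probe sets gave 1673 values on the same side of the threshold, 99 that lost it, 16 that gained it and 0 called values that turned their sign. Passing under all alternatives run for them were Psme3, Psmc1, Psma1, Psmb1 160875_at, Psmd7 and Psmd12 in muscle MP against bone marrow MP, Psme3, Psmc1 and Psmd14 in muscle SP against bone marrow SP, and Psma1 in bone marrow SP against MP. Psmd12 93971_f_at has no value without suffixed probe sets. Calls outside the named differences, such as those of Psmc3 and that of Psmd14 in MP cells, were not examined singly under the alternatives. The calls lost most often were the tissue differences of Psma5 (20 alternatives) and Psmd12 (18). Differences that had not passed did change sign with the scaling, such as Psmb5 101558_s_at in bone marrow SP against MP. The 1 call of muscle SP against MP became 3 with array weights, 3 with the replicate block, 2 with the GAPDH ratio as a covariate and 3 without the 3 arrays of highest GAPDH ratio, and 0 to 3 with an array left out. The 14 of bone marrow SP against MP became 8 with median scaling, and 8 to 14 with an array left out. The 5 of muscle against bone marrow SP became 3 to 7 with an array left out. The 14 of muscle against bone marrow MP became 8 without suffixed probe sets, where 41 members were left to test, 21 with array weights, and 12 to 16 with an array left out. The 5 of the tissue difference became 9 without further normalization, 1 with median scaling, 3 with the floor at the 10th percentile, 2 with no filter, 3 without the 3 arrays of highest GAPDH ratio, 3 without suffixed probe sets, and 1 to 7 with an array left out. The cause of these shifts was not tested. Beyond these, the replicate block gave 17, 7, 16 and 5 calls in the other comparisons. Whether the replicate numbers pair the arrays is not stated in the labels, so these counts stand beside those in the text and do not replace them. Probe sets near the floor, such as Psmc3ip, Psmb1 161923_at and Psmc5 161921_f_at, carry compressed differences, and 5 arrays a group limit the precision.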
